A study of Mus musculus with 10 samples.

Results

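FLASH and conventional (CONV) irradiation with the same dose of 33.3 Gy were compared in inguinal subcutaneous white fat of wild-type C57BL/6J mice at day 70. The comparison holds every library that the labels give as FLASH 33.3 Gy (4) or CONV 33.3 Gy (3), which is 7 of the 10 libraries of the study. The other 3 came from sham mice, which were not irradiated, and their values stand beside many of the genes below, but not all, as the level without radiation. Both irradiated groups received electrons to the left hindlimb from 1 linear accelerator, set to either modality, and every library carries the same batch number. The study asked whether the modality matters for this fat depot.

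FLASH radiotherapy delivers its dose at an ultra-high dose rate, within a very short time, and has been reported in animals to spare normal tissue compared with the same dose at the conventional rate. Subcutaneous white fat stores lipid in large adipocytes, secretes hormones such as leptin and adiponectin, and also holds progenitor cells, vessels, nerves and resident macrophages. A lymph node lies inside the inguinal depot, and skin and leg muscle lie against it, so pieces of these tissues can enter a sample.

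Levels are given as CPM (counts per 1e6 gene counts after scaling between libraries by TMM). Differences are log2 fold changes from edgeR's quasi-likelihood test, always FLASH minus CONV, so that a negative value means less RNA in FLASH, with their standard error. A gene passed the test at a p-value below 0.05 after Benjamini-Hochberg adjustment over all genes tested. Whether the libraries of a group are different mice is not stated in the labels, and the p-values therefore cover the spread between these samples, which may be technical. In tissue pieces, fewer cells of a type and less RNA per cell cannot be told apart.

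Between 22387877 (FLASH replicate 3) and 36032027 (FLASH replicate 1) counts per irradiated library fell on genes. A gene with 3 counts is then at 0.0833 to 0.134 CPM, a limit for counting error only. The follicular dendritic and B cell receptor gene Cr2 stood at 482 CPM in FLASH replicate 3 and at 447 CPM in CONV replicate 2, and at no more than 0.540 CPM in the other 8 libraries, before TMM scaling. Glycam1, a gene of lymph node venules, had 955 counts in FLASH replicate 3 and 4303 in CONV replicate 2, against 0 or 1 in the other libraries. These 2 are called the lymph node libraries below. Counts of genes that passed are given with them (4 against 3) and without them (3 against 2). Differences and list medians are given for both sets or for 1 of them. Where no set is named, they are from the set without the lymph node libraries. The mean log2 CPM of 24 adipocyte markers lay -2.31 and -2.85 from the sham mean in the lymph node libraries and between -0.15 and 0.40 in the other irradiated ones. Skeletal muscle markers were high in CONV replicate 1 (6.08 above the sham mean, with the myosin gene Myh4 at 756 CPM), in sham replicate 3 (3.82) and in FLASH replicate 2 (2.61). Red cell markers were highest in CONV replicate 1 (2.08), where Slc4a1, the anion exchanger of red cells, stood at 17.5 CPM. Markers of keratinocytes and hair follicles were highest in FLASH replicate 4 (4.23), with 1.56 and 1.86 in CONV replicates 2 and 3. The part of these tissues in the differences below was not tested beyond leaving out libraries and adding a muscle or B cell covariate.

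**Figure D1:**
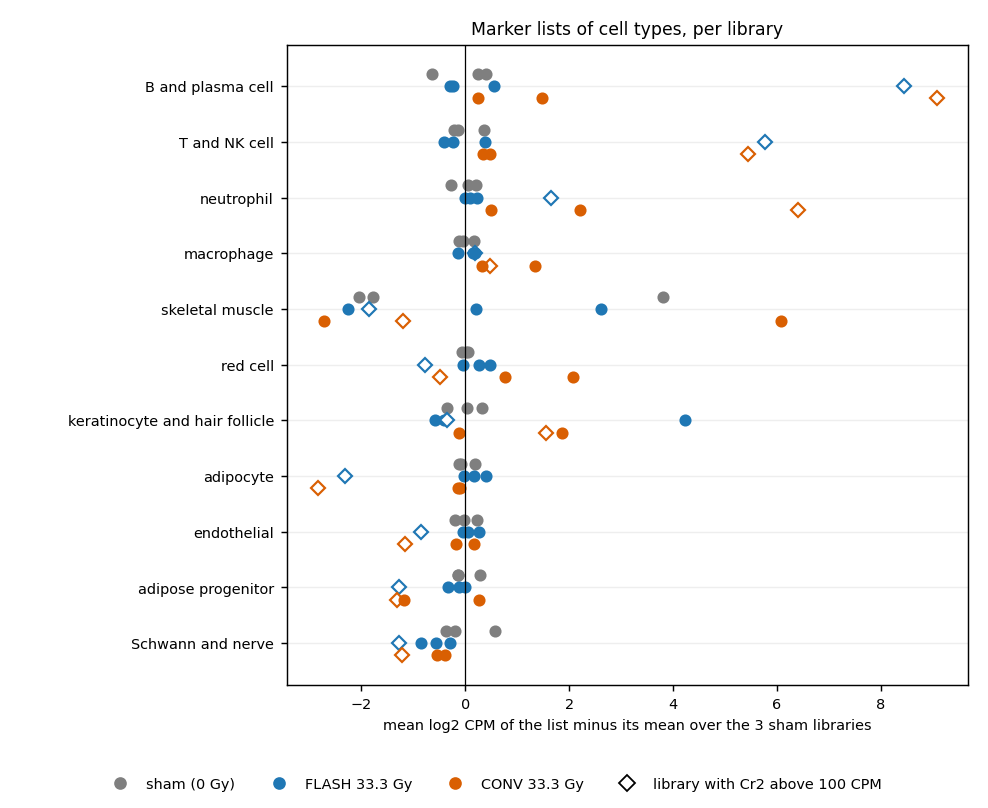
Mean log2 CPM of 11 marker lists in each of the 10 libraries, minus the mean of the 3 sham libraries. Filled circles are libraries with Cr2 below 100 CPM and open diamonds the lymph node libraries, where B and plasma cell markers lay 8.45 (FLASH) and 9.09 (CONV) above sham and adipocyte markers below it.

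With all libraries, 0 of 15266 genes passed between FLASH and CONV in either direction (0% of genes tested, lowest adjusted p 1.00 in edgeR). At an unadjusted p under 0.05, 215 genes were higher (1.41%) and 238 lower in FLASH (1.56%). DESeq2 on the same libraries passed 18 genes higher (0.127%) and 22 lower in FLASH (0.155%). The 95% interval of the fold change lay wholly within a 2-fold difference for 6814 genes (44.6%). For the other genes it reached a 2-fold difference or more in at least 1 direction. The FLASH libraries lay wholly above the CONV libraries for 175 genes (1.15%) and wholly below for 178 (1.17%), and the fold change was above 0 for 43.9% and below 0 for 56.1% of genes. Once the lymph node libraries were left out, the common coefficient of variation between libraries was 0.284 instead of 0.542. Then 2 of 15252 genes passed, Prg4 and Socs3, both lower in FLASH (0.0131%), and 0 passed in the other direction (0%). At an unadjusted p under 0.05, 1030 genes were higher (6.75%) and 1052 lower in FLASH (6.90%), and the interval lay within a 2-fold difference for 9311 genes (61.0%). DESeq2 passed 324 genes higher (2.13%) and 343 lower (2.26%) here. With 3 against 2 libraries, 1955 genes lay wholly above (12.8%) and 2014 wholly below (13.2%), so that the absence of overlap in this set of libraries is common, and the fold change was above 0 for 46.9% and below 0 for 53.1% of genes. A fit to all libraries with lymph node content as a term passed 0 genes (0%, lowest adjusted p 0.0680 in edgeR), and 2057 genes had an unadjusted p under 0.05, 1092 higher (7.15%) and 965 lower (6.32%). Its fold changes were above 0 for 46.2% and below 0 for 53.8% of genes. Of the 215 and 238 genes at an unadjusted p under 0.05 with all libraries, 196 (91.2%) and 194 (81.5%) were so in the same direction without the lymph node libraries, where they made up 19.03% and 18.4% of the genes at that level. The smaller set is part of the larger one, so these shares do not measure agreement between independent results.

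Socs3, the feedback inhibitor of cytokine receptors that signal through JAK kinases and STAT3, was high in every CONV library and in 1 FLASH library. Its level was 38.5, 53.2 and 50.7 CPM in CONV replicates 1 to 3, 8.68, 6.14, 35.2 and 8.94 CPM in FLASH replicates 1 to 4 and 7.15, 7.42 and 7.75 CPM in the sham libraries. The groups did not overlap even with the lymph node libraries, and the FLASH library that stood apart was the lymph node library. The difference was -1.69 ± 0.55 with all libraries (unadjusted p = 0.0133, edgeR adjusted p = 1.00) and -2.48 ± 0.20 without the lymph node libraries (edgeR adjusted p = 0.0126). Prg4 encodes lubricin, a secreted mucin-like glycoprotein known from joint surfaces. It stood at 19.9, 1.40 and 13.0 CPM in the CONV libraries, at 1.15, 1.18, 0.876 and 1.57 CPM in the FLASH libraries and at 2.09, 2.65 and 2.15 CPM in the sham libraries. All 4 FLASH libraries lay below all 3 sham libraries, while CONV replicates 1 and 3 lay above them and the CONV lymph node library lay within the range of FLASH. Its difference was -3.25 ± 0.70 with all libraries (unadjusted p = 0.00121) and -3.65 ± 0.27 without the lymph node libraries (edgeR adjusted p = 0.0126). Both calls depended on single libraries. Leaving out sham replicate 1 or 3, or FLASH replicate 1, 2 or 4, raised the adjusted p of both genes to between 0.0580 and 0.134. Without sham replicate 2, CONV replicate 1 or CONV replicate 3 it was between 0.00365 and 0.0487. A fit to the FLASH and CONV libraries alone, without sham to estimate the spread, ended both calls (edgeR adjusted p = 0.223). Over the 8 fits that left out 1 library each the difference was between -3.93 and -3.29 for Prg4 and between -2.65 and -2.28 for Socs3.

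On mm10, GENCODE M21 places Socs3 on chromosome 11, 117966079 to 117970047, minus strand, and Prg4 on chromosome 1, 150449412 to 150466165, minus strand, where an exon of Prg4 overlaps one of Tpr on the other strand. Tpr itself stood at 229.9, 266 and 159 CPM in the CONV and 235, 202, 238 and 193 CPM in the FLASH libraries, and its part in the Prg4 counts was not tested. Of the 2 genes that passed, RefSeq's promoter table (GRCm38.p6) held Socs3. Its 250 bases before the RefSeq start site (chr11:117969367-117969616, minus strand, printed 5′ to 3′ along the gene) are shown because STAT3 acts on the Socs3 promoter in the known feedback loop. This stretch lies inside the GENCODE span of Socs3, which begins at 117970047 on this strand. Whether GENCODE also holds a transcript that starts at the RefSeq site was not checked. Positions below count from the RefSeq start site, and which start is used in this tissue was not tested.
Socs3 promoter: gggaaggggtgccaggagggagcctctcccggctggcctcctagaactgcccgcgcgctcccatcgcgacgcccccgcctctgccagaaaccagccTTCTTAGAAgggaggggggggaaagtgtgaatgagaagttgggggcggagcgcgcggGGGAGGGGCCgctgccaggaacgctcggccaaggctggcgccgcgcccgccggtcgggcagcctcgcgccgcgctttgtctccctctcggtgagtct
The first run of capitals is a match to TTCNNNGAA, the palindrome that STAT dimers bind, at -154 to -146 from the start site. The second is a match to a loose form of the NF-kB motif (GGG and CC with 5 bases between), at -97 to -88. Both strands were searched and the matches do not overlap. Among 32851 promoters cut to the same length, 7.02% held the first motif and 45.8% the second. A match is a description of the sequence and not a site shown to be bound.

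Genes of the acute phase and STAT3 response stood higher in CONV as a group. In the fit without the lymph node pair 19 of 21 tested members were lower in FLASH, 15 of them at an unadjusted p under 0.05, against 1 member higher at that level, the interleukin 6 receptor chain Il6ra. The median was -1.24, against -0.024 for all genes tested, of which 53.1% were lower, 6.90% at that level. With all libraries 18 of 21 were lower, 4 at that level, with a median of -0.78 against -0.045 for all genes. Of all genes 56.1% were lower there, 1.56% at that level. Socs3 is the member of the list that passed the test. Lcn2, a siderophore-binding lipocalin of the acute phase, was at 5.75, 26.8 and 43.0 CPM in CONV, 0.395, 0.699, 0.152 and 0.771 CPM in FLASH and 0.546, 1.14 and 0.369 CPM in sham. No FLASH library reached the lowest CONV library, and the difference was -5.63 ± 0.81 with and -5.27 ± 0.84 without the lymph node libraries (edgeR adjusted p = 0.0931). Saa3, the serum amyloid A of fat and macrophages, was at 0.958, 1.24 and 19.8 CPM in CONV and 0.304, 0.257, 0.152 and 0.216 CPM in FLASH, highest by far in CONV replicate 3. Its difference was -5.28 ± 1.17 without the lymph node libraries and -1.88 when CONV replicate 3 was left out as well. Stat3 itself was at 219, 209 and 344 CPM in CONV, 175, 174, 205 and 206 CPM in FLASH and 161, 180.3 and 162 CPM in sham, without overlap between the irradiated groups. Its difference was -0.44 ± 0.20 with all libraries and -0.59 ± 0.19 without the lymph node libraries. The latter was -0.25 when CONV replicate 3 was left out as well.

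Hp and Serpina3n, which adipocytes express strongly, were lowest in the 2 lymph node libraries, where adipocyte markers were also lowest. Hp (haptoglobin, which binds free haemoglobin) was at 1559.9, 134 and 6889 CPM in CONV replicates 1 to 3, 1113, 1117, 150.1 and 976 CPM in the FLASH libraries and 674, 1093 and 686 CPM in sham, highest in CONV replicate 3. Serpina3n, a secreted protease inhibitor, was at 748, 102 and 1494 CPM in CONV and 500.3, 554, 109.7 and 342 CPM in FLASH. Il6, the cytokine upstream of STAT3, was barely detected, at 0.958, 0.1001 and 1.000 CPM in CONV, 0.0607, 0.0368, 0.191 and 0.0308 CPM in FLASH and 0.121, 0.131 and 0.134 CPM in sham, and was tested only without the lymph node libraries (-4.37 ± 0.49, edgeR adjusted p = 0.0673). The list median kept its sign without CONV replicate 1 (-1.48) and without CONV replicate 3 (-0.55).

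**Figure D2:**
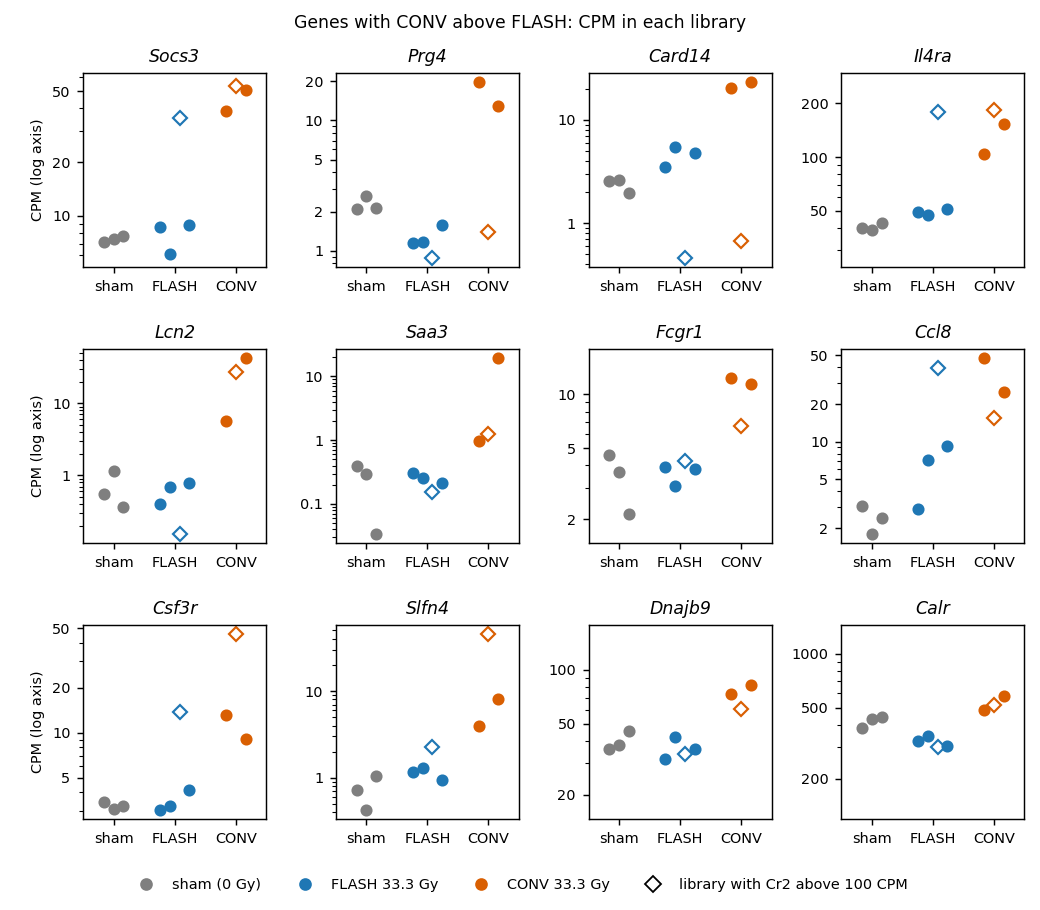
CPM on log axes of 12 genes with more RNA in CONV, 1 point per library, in sham, FLASH and CONV. Filled circles are libraries with Cr2 below 100 CPM and open diamonds the lymph node libraries. For Socs3, Lcn2, Saa3, Fcgr1, Slfn4, Dnajb9 and Calr every CONV point lies above every FLASH point.

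Some further genes of cytokine signalling and inflammation came close to the threshold in the fit without the lymph node libraries, but did not pass it. Card14, a scaffold protein that activates NF-kB in skin, was at 20.4, 0.668 and 23.5 CPM in CONV, 3.52, 5.44, 0.457 and 4.84 CPM in FLASH and 2.55, 2.65 and 1.95 CPM in sham, with its lowest values in the 2 lymph node libraries (-2.24 ± 0.23 without them, edgeR adjusted p = 0.0579). With all libraries its difference was -2.06 ± 1.01 (edgeR unadjusted p = 0.0718). Keratinocyte markers were raised in FLASH replicate 4 and CONV replicates 2 and 3, as given above, and their part in this difference was not tested. An exon of Card14 overlaps one of Sgsh on the other strand. Il4ra, the shared receptor chain for interleukins 4 and 13, was at 104, 184 and 153 CPM in CONV and 49.1, 47.2, 179 and 50.9 CPM in FLASH, where the lymph node library reached the CONV range (-1.37 ± 0.15 without the lymph node libraries, edgeR adjusted p = 0.0673). With all libraries the difference of Il4ra was -0.85 ± 0.48 (edgeR unadjusted p = 0.113). Vmp1, an endoplasmic reticulum protein of autophagy, was higher in each CONV library (137, 99.8 and 148 CPM) than in any FLASH library (82.9, 73.9, 89.1 and 82.6 CPM), and its sham level was 62.5, 61.3 and 72.6 CPM (-0.83 ± 0.12 without the lymph node libraries, and -0.65 ± 0.17 with all libraries). An exon of Vmp1 overlaps the microRNA gene Mir21a on the same strand, whose part in these counts was not tested. Of the list of NF-kB and acute inflammation genes, 13 of 17 tested members were lower in FLASH without the lymph node libraries, 8 at an unadjusted p under 0.05 and 1 the other way (Tnfaip3, an inhibitor of NF-kB), with a median of -0.68. Of all genes tested there, 53.1% were lower, 6.90% at that level, and 6.75% were higher at that level. With all libraries the median of the list was -0.37, and 0 members reached that level. Il1b, the inflammasome cytokine, was at 3.80, 6.84 and 1.48 CPM in CONV and 0.395, 0.184, 4.57 and 0.370 CPM in FLASH. Among immediate early genes 12 of 17 were lower in FLASH without the lymph node libraries (median -0.44), a direction that rested on CONV replicate 1, since the median was 0.44 without CONV replicate 1 and -0.57 without CONV replicate 3. Junb, a transcription factor subunit, was at 28.1, 37.7 and 36.0 CPM in CONV and 15.9, 8.35, 41.2 and 13.7 CPM in FLASH. Ier3 was at 8.05, 3.87 and 7.63 CPM in CONV and 3.83, 2.65, 3.70 and 5.18 CPM in FLASH, and for both genes the lymph node libraries made the groups overlap.

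Most macrophage markers also stood higher in CONV. Of 19 macrophage genes, 18 were lower in FLASH without the lymph node libraries, 11 at an unadjusted p under 0.05, with a median of -0.92. Of all genes tested there, 53.1% were lower, 6.90% at that level. With all libraries 18 macrophage genes were lower, 5 at that level, with a median of -0.73, against 56.1% and 1.56% of all genes. The list mean was highest in CONV replicate 1 (1.35 above the sham mean, against 0.47 and 0.32 in CONV replicates 2 and 3 and -0.14, 0.14, 0.19 and 0.18 in the FLASH libraries), and without CONV replicate 1 the list median was -0.14. This was also the library with the most red cell markers, whose part was not tested. Its B and plasma cell and neutrophil means lay 1.48 and 2.20 above sham. Without the pair 18 of 18 T and NK cell genes were lower in FLASH, 1 at that level (median -0.31, and -0.038 with all libraries). Of B and plasma cell genes 13 of 14 were lower, 2 at that level (median -0.84, and -0.81 with all libraries). The B and plasma cell median without the pair was 0.040 when CONV replicate 1 was left out. Fcgr1, the high-affinity receptor for IgG, was at 12.3, 6.64 and 11.4 CPM in CONV, 3.92, 3.05, 4.23 and 3.79 CPM in FLASH and 4.58, 3.69 and 2.15 CPM in sham (-1.43 ± 0.33 with all libraries, -1.71 ± 0.30 without the lymph node pair). Ccr2, the receptor that draws monocytes into tissue, was at 175, 72.1 and 91.5 CPM in CONV and 45.5, 40.6, 60.4 and 52.2 CPM in FLASH, with sham in between at 63.2, 63.1 and 61.3 CPM. For both genes no FLASH library reached the lowest CONV library. Ms4a6d, a membrane protein of macrophages, had the same order (17.3, 10.0 and 11.6 CPM in CONV, 3.61, 5.08, 5.94 and 6.01 CPM in FLASH). Cd14, the co-receptor for lipopolysaccharide, was at 19.04, 7.88 and 40.3 CPM in CONV and 11.4, 10.8, 6.63 and 11.7 CPM in FLASH, so that only the CONV lymph node library overlapped. Genes of lipid-associated macrophages were divided (5 higher and 9 lower, median -0.14, and 0.28 without CONV replicate 1). In that list Trem2, the lipid-sensing receptor that names the state, was highest in CONV replicate 1 (6.20, 1.70 and 2.37 CPM in CONV, 1.09, 1.51, 0.381 and 1.94 CPM in FLASH), and Spp1 (osteopontin) was at most 2.12 CPM in any library, at 0.735, 0.734 and 1.44 CPM in CONV and 0.0911, 0.368, 0.610 and 0.401 CPM in FLASH.

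Genes of neutrophils were highest in the CONV lymph node library. Their list median was -1.91 with all libraries and -0.84 without the pair. In the latter set it was -0.071 without CONV replicate 1 and -1.38 without CONV replicate 3. Csf3r, the receptor for granulocyte colony-stimulating factor, was at 13.2, 46.1 and 9.03 CPM in CONV, 3.04, 3.24, 13.8 and 4.16 CPM in FLASH and 3.42, 3.07 and 3.22 CPM in sham, and had the smallest p of all genes in the fit with lymph node content as a term (-1.70 ± 0.17, edgeR adjusted p = 0.0680). Within each kind of library CONV stood above FLASH, since the CONV lymph node library lay above the FLASH one and the other CONV libraries lay above the other FLASH ones. Cxcr2, the receptor by which neutrophils follow chemokines, was at 2.88, 39.7 and 0.444 CPM in CONV and 0.0304, 0.0368, 18.5 and 0.185 CPM in FLASH. Slfn4, an interferon-induced gene of myeloid cells, was at 3.99, 46.0 and 8.03 CPM in CONV and 1.15, 1.29, 2.25 and 0.955 CPM in FLASH. Chil3, a chitinase-like protein secreted by such cells, was at 1.15, 20.8 and 2.92 CPM in CONV and 0.213, 0.184, 0.915 and 0.185 CPM in FLASH. In both genes the CONV lymph node library held the highest value. The histamine-forming enzyme Hdc was at 8.82, 7.18 and 6.66 CPM in CONV and 2.70, 3.42, 2.17 and 4.22 CPM in FLASH, although the mast cell list as a whole had a median of -0.29 without and -0.015 with the lymph node libraries. The 2 CONV libraries left without the pair were opposed there, and the mast cell median was 1.48 without CONV replicate 1 and -1.12 without CONV replicate 3.

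Chemokines and interferon-stimulated genes were mostly higher in CONV once the lymph node libraries were left out. Of 16 chemokine ligands 13 were lower in FLASH, 5 at an unadjusted p under 0.05 (median -0.67, and -0.46 with all libraries, where 0 reached that level). Of all genes tested, 53.1% were lower without the pair (6.90% at that level) and 56.1% with all libraries (1.56%). Ccl8, which attracts monocytes and other leukocytes, was at 47.8, 15.6 and 25.3 CPM in CONV, 2.85, 7.17, 39.5 and 9.18 CPM in FLASH and 3.06, 1.80 and 2.41 CPM in sham. Ccl12, another monocyte attractant, was at 3.71, 1.94 and 2.33 CPM in CONV and 0.304, 0.331, 3.05 and 0.801 CPM in FLASH. Cxcl13, the B cell attractant of lymphoid follicles, was at 10.7, 124 and 8.48 CPM in CONV and 0.638, 1.29, 74.4 and 1.70 CPM in FLASH. The FLASH lymph node library lay far above the other FLASH libraries for all 3, and without the pair the difference was -2.50 ± 0.48, -2.63 ± 0.56 and -2.97 ± 0.38. With all libraries it was -1.01 ± 0.78, -1.25 ± 0.79 and -1.29 ± 1.59. Of 30 interferon-stimulated genes, 26 were lower in FLASH without the pair, 12 at an unadjusted p under 0.05 (median -0.53), and 22 with all libraries, 3 at that level (median -0.41). Among the libraries without lymph node the median was -0.80 without CONV replicate 1 and -0.20 without CONV replicate 3. Oas2, a synthetase of the RNA-degrading antiviral pathway, stood at 31.2, 44.9 and 49.98 CPM in CONV and 12.3, 21.8, 37.3 and 12.3 CPM in FLASH. Its relative Oas3 was at 9.23, 56.0 and 10.3 CPM in CONV and 2.55, 4.27, 48.4 and 2.22 CPM in FLASH. The list mean was similar in the 2 lymph node libraries (1.62 and 1.597 above sham), and higher in CONV replicates 1 and 3 (0.42 and 0.83) than in FLASH replicates 1, 2 and 4 (0.25, 0.19 and -0.066).

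In the unfolded protein response CONV stood above FLASH both between the 2 lymph node libraries and among the others. This response raises chaperones of the endoplasmic reticulum when unfolded protein builds up there, and secretory cells such as plasma cells also carry it at a high level. With all libraries 17 of 18 members were lower in FLASH, 10 at an unadjusted p under 0.05, with a median of -0.73. Without the lymph node libraries 15 were lower, 9 at that level and 1 the other way (Edem1, which sends misfolded glycoproteins to degradation), with a median of -0.41. Of all genes tested, 56.1% were lower with all libraries (1.56% at that level) and 53.1% without the pair (6.90%). Dnajb9, a co-chaperone of BiP, was at 73.1, 60.5 and 82.3 CPM in CONV, 31.8, 42.4, 33.7 and 36.0 CPM in FLASH and 35.9, 37.98 and 45.4 CPM in sham, so that FLASH overlapped sham and every CONV library lay above both (-1.0 ± 0.17 with all libraries, -1.07 ± 0.16 without the pair, edgeR adjusted p = 0.0931). Calr, a calcium-binding chaperone, was at 486, 515 and 579 CPM in CONV, 327, 348, 299 and 303 CPM in FLASH and 382, 432 and 442 CPM in sham. Here the sham libraries lay between the groups, and no FLASH library reached the sham range (-0.72 ± 0.17 and -0.70 ± 0.14). Xbp1, the transcription factor of the response and of plasma cells, was at 221, 537 and 344 CPM in CONV and 157, 142, 138 and 189 CPM in FLASH, with its maximum in the CONV lymph node library, where the plasma cell gene Jchain stood at 1236 CPM against 258 CPM in the FLASH one. Jchain was also at 22.0 and 22.1 CPM in CONV replicate 1 and FLASH replicate 4 and at 0.364 to 3.66 CPM elsewhere, and its part in the list's difference was not tested. Among cytosolic heat shock genes outside the lymph node libraries, Hsph1 was higher in CONV (30.1, 39.1 and 28.3 CPM in CONV and 18.4, 21.8, 28.2 and 13.3 CPM in FLASH). Cryab, a small heat shock protein, was lower there (51.3, 3.91 and 25.8 CPM in CONV and 136, 123, 10.8 and 66.4 CPM in FLASH), and the list median was -0.10 in the fit without the pair.

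On the other side, several imprinted genes that are read from the paternal copy had more RNA in FLASH outside the lymph node libraries. Mest, an imprinted gene known to follow fat mass expansion in mice, was at 434, 346, 9.79 and 158 CPM in FLASH, 8.50, 4.04 and 15.0 CPM in CONV and 188, 298 and 79.6 CPM in sham. Each CONV library lay below every sham library, and of the FLASH libraries only the lymph node one overlapped CONV. Mest differed by 4.69 ± 1.19 with all libraries and by 4.74 ± 0.72 without the pair (edgeR adjusted p = 0.0931). Peg3, another paternally expressed gene, was at 557, 336, 40.5 and 327 CPM in FLASH, 61.6, 33.5 and 61.9 CPM in CONV and 183, 326 and 394 CPM in sham (2.59 ± 0.75 and 2.73 ± 0.38, edgeR adjusted p = 0.0931), with the same pattern. Hymai, a noncoding RNA of the Plagl1 locus, was at 10.6, 12.6, 0.686 and 9.74 CPM in FLASH and 2.94, 1.07 and 2.11 CPM in CONV. Plagl1 itself was at 206, 218, 24.3 and 200.3 CPM in FLASH and 113, 9.25 and 30.9 CPM in CONV, with CONV replicate 1 in the sham range. The fetal growth factor Igf2 was at 15.7, 14.7, 2.67 and 12.3 CPM in FLASH and 7.25, 2.64 and 6.22 CPM in CONV. A list of imprinted growth genes was written after these values were seen. Of its 20 tested members 15 were higher in FLASH without the pair, 9 at an unadjusted p under 0.05 and 0 the other way, with a median of 0.59, which was 1.21 without CONV replicate 1 and 0.23 without CONV replicate 3. With all libraries 16 were higher, 4 at that level (median 0.71). Of all genes tested, 46.9% were higher without the pair (6.75% at that level) and 43.9% with all libraries (1.41%).

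Mir335, the gene of a microRNA that lies within Mest on the same strand, had almost no counts in CONV. On mm10, Mest spans chromosome 6, 30723547 to 30748465, plus strand, and Mir335 chromosome 6, 30741299 to 30741396, plus strand. Reads of the microRNA precursor and of unspliced Mest RNA cannot be told apart there. An exon of Mest also overlaps one of Copg2 on the other strand. Mir335 was at 2.67, 4.08, 0.343 and 4.35 CPM in FLASH and 0.0639, 0.0334 and 0.0740 CPM in CONV, with 1.12, 4.28 and 1.54 CPM in sham. Without the lymph node libraries this is 340 counts in FLASH against 4 in CONV, a ratio per scaled count of 53.5 with an exact conditional binomial 95% interval of 20.7 to 198, and with them 349 against 5, a ratio of 51.9 (22.0 to 161). These intervals cover counting error only. The mature products are shown because they are what the locus makes besides the Mest protein, with the seed, bases 2 to 8, in capitals (RefSeq, GRCm38.p6). A total RNA library of this kind does not measure the mature microRNAs.
mmu-miR-335-5p: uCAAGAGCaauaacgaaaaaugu
mmu-miR-335-3p: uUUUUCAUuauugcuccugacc
The seeds of the 2 arms differ, so they belong to separate seed groups.

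**Figure D3:**
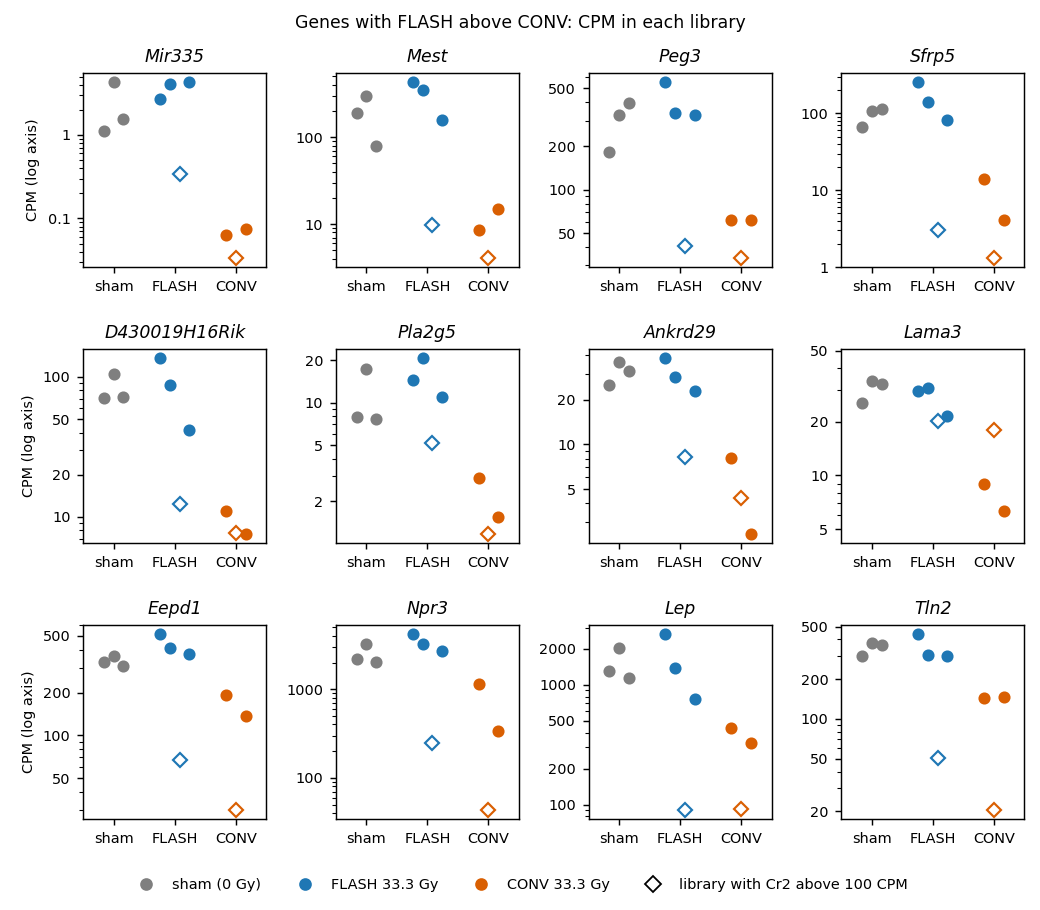
CPM on log axes of 12 genes with more RNA in FLASH, 1 point per library, in sham, FLASH and CONV. Filled circles are libraries with Cr2 below 100 CPM and open diamonds the lymph node libraries. For Mir335, D430019H16Rik, Pla2g5, Ankrd29 and Lama3 every FLASH point lies above every CONV point, and in all 12 panels every CONV point lies below every sham point.

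Pla2g5, a secreted phospholipase, was at 14.6, 20.9, 5.18 and 10.9 CPM in FLASH, 2.94, 1.17 and 1.55 CPM in CONV and 7.97, 17.4 and 7.71 CPM in sham (2.77 ± 0.58 with all libraries). Ankrd29, an ankyrin repeat protein, was at 38.5, 28.7, 8.27 and 22.8 CPM in FLASH and 8.11, 4.34 and 2.48 CPM in CONV. The transcript D430019H16Rik was at 137, 87.6, 12.3 and 41.5 CPM in FLASH and 10.96, 7.68 and 7.52 CPM in CONV, and neither gene showed overlap. Ephb6, an Eph receptor without kinase activity, stood at 20.5, 17.6, 10.7 and 12.3 CPM in FLASH and 7.89, 6.41 and 4.37 CPM in CONV. Lama3, a laminin chain of basement membranes, was at 29.8, 30.8, 20.3 and 21.5 CPM in FLASH and 8.91, 18.0 and 6.33 CPM in CONV. For all of these the CONV libraries lay below the sham libraries. Without the lymph node pair the 5 smallest p-values on this side also included Lzts1 (4.13, 4.34, 0.800 and 3.51 CPM in FLASH and 1.37, 0.801 and 1.000 CPM in CONV). With lymph node content as a term the 5 smallest p-values on this side belonged to Eepd1 (1.33 ± 0.17), Tln2, which links integrins to actin (1.28 ± 0.16), the Wnt receptor Fzd4 (0.99 ± 0.14), Mir335 (5.26 ± 0.75) and the adhesion molecule Mcam (1.01 ± 0.15). The lowest of their adjusted p-values in edgeR was 0.0919. Each of these 5 genes was lowest in the lymph node library of its group. Eepd1 was at 520.1, 411, 66.8 and 371 CPM in FLASH and 191, 29.8 and 137 CPM in CONV. Tln2 was at 444, 306, 50.7 and 298 CPM in FLASH and 144, 20.4 and 145 CPM in CONV. For Fzd4 the values were 911, 763, 119.7 and 726 CPM in FLASH and 478, 52.0 and 378 CPM in CONV, and for Mcam 563, 449, 83.6 and 379 CPM in FLASH and 224, 45.2 and 222 CPM in CONV. Outside the lymph node libraries every CONV value of the 5 genes lay below every FLASH and every sham value. The order against FLASH follows in part from their choice by p, and 12.8% of all genes lay wholly above CONV there.

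Among secreted factors and receptors of fat cells the hormone genes split. Lep (leptin), which reports fat mass to the brain, was at 2688, 1394, 89.9 and 767 CPM in FLASH, 436, 92.3 and 325 CPM in CONV and 1301, 2044 and 1138 CPM in sham. Outside the lymph node libraries every CONV library lay below every FLASH and sham library (2.09 ± 0.52, edgeR adjusted p = 0.163, and 2.12 ± 0.97 with all libraries). Adipoq (adiponectin), which did not follow this order, was at 2089.8, 1706, 373 and 1346 CPM in FLASH, 1289, 267 and 1576 CPM in CONV and 2098, 1726 and 1559 CPM in sham (0.27 ± 0.23, 95% interval -0.26 to 0.80, and 0.40 ± 0.67 with all libraries). Sfrp5, a secreted Wnt decoy of adipocytes, was at 259, 142, 3.05 and 80.9 CPM in FLASH and 14.2, 1.30 and 4.11 CPM in CONV, against 67.5, 108 and 115 CPM in sham (4.13 ± 0.70, and 4.214 ± 1.325 with all libraries). Npr3, the clearance receptor for natriuretic peptides, was at 4248, 3198, 246 and 2698 CPM in FLASH and 1148, 43.2 and 338 CPM in CONV. Bmp3, a bone morphogenetic protein, was at 208, 149, 13.5 and 140.0 CPM in FLASH and 55.2, 10.7 and 65.0 CPM in CONV. The choline transporter Slc5a7 was at 43.8, 45.4, 0.305 and 5.86 CPM in FLASH and 0.671, 0.0668 and 0.111 CPM in CONV. For Slc5a7, Sfrp5 and Npr3 the CONV lymph node library held the lowest value of all 7. The list of adipokines and hormone-like factors had 9 of 14 members higher in FLASH without the pair, 4 at an unadjusted p under 0.05 and 2 the other way (median 0.22), and the adipocyte markers 16 of 24, with 4 and 2 (median 0.27). Without FLASH replicate 1 these 2 medians were 0.10 and 0.14. Of all genes tested without the pair, 46.9% were higher, and 6.75% were higher and 6.90% lower at an unadjusted p under 0.05.

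The metabolic programmes of fat had negative medians only while CONV replicate 3 was included, except the thermogenic list. In the fit without the lymph node pair all 28 tested subunits of oxidative phosphorylation and all 20 tested genes of the tricarboxylic acid cycle were lower in FLASH, 6 and 4 of them at an unadjusted p under 0.05. Of all genes tested there, 53.1% were lower, 6.90% at that level. Medians of the 2 lists were -0.46 and -0.43, and with all libraries -0.38 and -0.29, with 0 members of either at that level. Fatty acid oxidation (18 of 20 lower, median -0.52), de novo lipogenesis (19 of 20, -1.30) and thermogenic genes (14 of 15, -1.02) had the same sign. With all libraries their medians were -0.34, -1.12 and -0.54. CONV replicate 3 carried these differences. Its lipogenic list mean was 1.65 above sham, while CONV replicate 1 lay at -0.49, FLASH replicates 1, 2 and 4 at -0.17, 0.045 and -0.49 and the sham libraries at 0.75, -0.11 and -0.63. Without CONV replicate 3 the medians became 0.15 for oxidative phosphorylation, 0.12 for the tricarboxylic acid cycle, 0.013 for fatty acid oxidation and 0.26 for lipogenesis, so that the direction turned or vanished, and -0.31 for the thermogenic list. Without CONV replicate 1 they were -0.88, -0.71, -0.80, -2.02 and -1.40 in the same order.

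The same library stood out in single genes of these programmes. Ucp1, the uncoupling protein of thermogenic fat, was at 0, 0.134 and 20.8 CPM in CONV, 0, 0.0368, 0.114 and 0.123 CPM in FLASH and 3.94, 0.0654 and 0.0335 CPM in sham. Cidea, a lipid droplet protein of brown and beige adipocytes, was at 9.17, 3.37 and 113 CPM in CONV and 5.95, 4.49, 4.42 and 5.95 CPM in FLASH, with sham replicate 1 also raised (40.6, 8.11 and 11.9 CPM). Cox7a1, a muscle and brown fat subunit of cytochrome oxidase, was at 4.79, 0.334 and 5.74 CPM in CONV and 1.43, 1.69, 0.305 and 0.524 CPM in FLASH, with a difference of -1.99 when CONV replicate 3 was left out. The library then left, CONV replicate 1, was the one with the most skeletal muscle markers. Gpam, which starts triglyceride synthesis, was at 263, 96.6 and 583 CPM in CONV and 245, 183, 91.7 and 225 CPM in FLASH. The fatty acid elongase Elovl5 was at 124, 83.8 and 219 CPM in CONV and 110.2, 109.6, 88.6 and 106 CPM in FLASH. Cpt1b, a carnitine palmitoyltransferase, was at 0.831, 0.935 and 5.63 CPM in CONV and 0.516, 0.515, 0.800 and 0.616 CPM in FLASH. In these 3 genes CONV replicate 3 was the highest of the irradiated libraries. Ehhadh, a peroxisomal enzyme of fatty acid oxidation, was higher than in FLASH in both CONV libraries without lymph node (89.9, 19.1 and 92.5 CPM, against 56.9, 52.0, 32.8 and 54.3 CPM in FLASH), and its difference of -0.73 ± 0.21 was -0.73 without CONV replicate 3. Of the tricarboxylic acid cycle, the succinyl-CoA ligase subunit Sucla2 was at 128, 35.4 and 164 CPM in CONV and 105, 107, 40.9 and 93.4 CPM in FLASH. Dld, the dehydrogenase subunit shared with pyruvate dehydrogenase, was at 212, 67.3 and 298 CPM in CONV and 189, 196, 76.4 and 178 CPM in FLASH. Of the respiratory chain, Cox6c was at 75.9, 29.3 and 115 CPM in CONV and 64.5, 62.2, 33.1 and 59.5 CPM in FLASH and Uqcrc2 at 229, 102 and 346 CPM in CONV and 179, 191, 101 and 213 CPM in FLASH. All 4 were lowest in the lymph node libraries and highest in CONV replicate 3. Lipolysis genes were divided (6 higher and 10 lower in FLASH, median -0.22, and 0.13 without CONV replicate 3). There the monoglyceride lipase Mgll was at 1885, 1468, 232 and 1098 CPM in FLASH and 875, 101 and 986 CPM in CONV. The antilipolytic receptor Hcar2 was at 18.2, 24.8, 13.9 and 33.4 CPM in FLASH and 45.8, 6.64 and 67.4 CPM in CONV. Insulin signalling genes had a median of 0.062, with Trib3, an inhibitor of AKT, at 14.0, 6.77, 3.73 and 10.1 CPM in FLASH and 4.92, 2.30 and 3.92 CPM in CONV. The receptor adaptor Grb14 was at 82.2, 72.3, 15.8 and 39.4 CPM in FLASH and 40.1, 2.57 and 29.6 CPM in CONV.

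**Figure D4:**
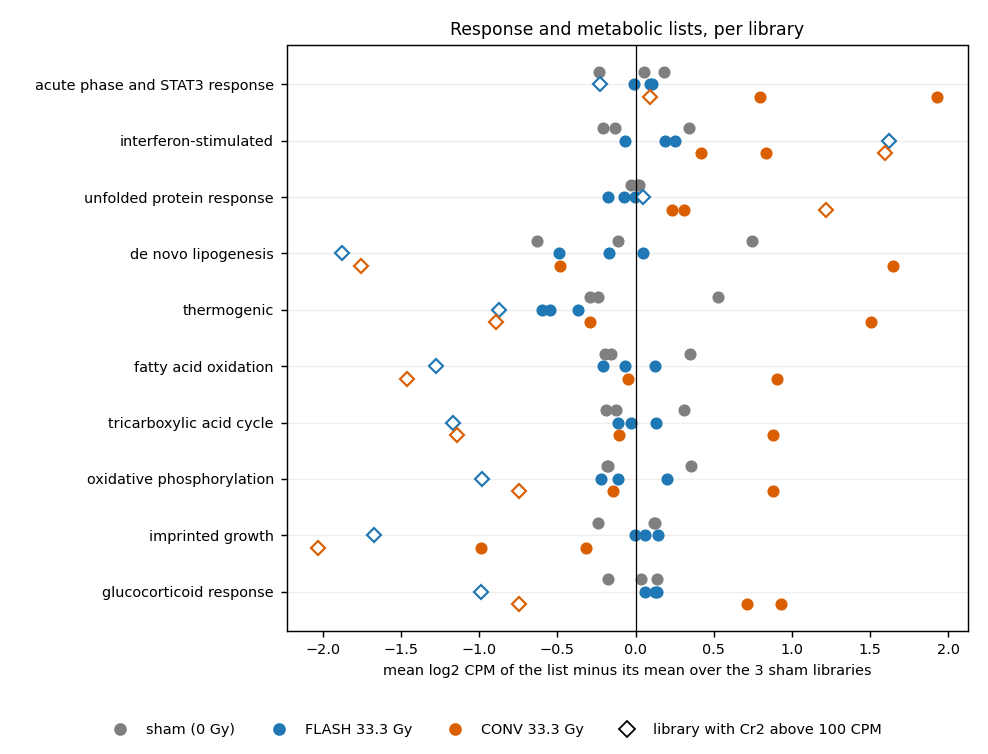
Mean log2 CPM of 10 gene lists in each of the 10 libraries, minus the mean of the 3 sham libraries. Filled circles are libraries with Cr2 below 100 CPM and open diamonds the lymph node libraries. In the lipogenic, thermogenic and oxidative lists 1 filled CONV point (replicate 3) lies far to the right of every other point, while in the acute phase list both filled CONV points do.

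Collagens and other matrix genes had no common direction, while single secreted matrix proteins, preset or named for small p-values, separated the groups. Of the fibrillar and network collagens 11 were higher and 6 lower in FLASH without the pair, with 4 higher at an unadjusted p under 0.05 (median 0.37, and 0.46 with all libraries). The first median was 0.18 without FLASH replicate 1 and 0.71 without CONV replicate 1. Of all genes tested without the pair, 46.9% were higher, 6.75% at that level. Col1a1, the main fibrillar collagen chain of scars, was at 791, 779, 153 and 461 CPM in FLASH, 956, 249 and 576 CPM in CONV and 755, 1120.5 and 523 CPM in sham, and its difference of -0.17 ± 0.38 without the pair had a 95% interval of -1.04 to 0.70 (-0.12 ± 0.61 with all libraries). Col18a1, a basement membrane collagen, was at 351, 237, 36.5 and 161 CPM in FLASH and 152, 26.9 and 94.7 CPM in CONV. Col5a3, a chain of type V collagen, was at 994, 887, 112 and 498 CPM in FLASH and 507, 52.3 and 229 CPM in CONV, with overlap. Matrix glycoproteins (10 higher, 16 lower) and metalloproteinases with their inhibitors (8 and 10) had medians of -0.084 and -0.021. The 2 CONV libraries without lymph node were opposed here too. The glycoprotein median was 0.41 without CONV replicate 1 and -0.53 without CONV replicate 3, and the metalloproteinase median 0.68 without CONV replicate 1 and -0.38 without CONV replicate 3. Spon1, a secreted matrix protein, was at 48.1, 29.2 and 43.5 CPM in CONV, 13.6, 15.1, 21.5 and 20.3 CPM in FLASH and 17.4, 19.6 and 14.0 CPM in sham, with no overlap (-1.19 ± 0.24 with all libraries, -1.47 ± 0.21 without the pair, edgeR adjusted p = 0.0931). Emilin1, a glycoprotein of elastic fibres, had the same order (19.9, 24.6 and 34.5 CPM in CONV, 13.7, 12.7, 16.1 and 13.0 CPM in FLASH, 10.8, 11.8 and 10.6 CPM in sham, -0.92 ± 0.21 with all libraries). Timp1, an inhibitor of metalloproteinases, was low but likewise without overlap (1.82, 0.534 and 1.63 CPM in CONV and 0.425, 0.368, 0.229 and 0.247 CPM in FLASH). Plod2, which modifies collagen lysines for crosslinking, was at 35.8, 8.65 and 40.3 CPM in CONV and 12.9, 15.7, 8.61 and 18.2 CPM in FLASH. The metalloproteinase Mmp19 was at 114, 18.3 and 100.3 CPM in CONV and 64.2, 70.6, 16.7 and 63.2 CPM in FLASH. Cpxm1, a secreted carboxypeptidase-like protein, was at 86.2, 49.5 and 62.6 CPM in CONV and 24.6, 30.5, 63.0 and 28.4 CPM in FLASH (-1.41 ± 0.17 without the pair, edgeR adjusted p = 0.0822). These 3 separated the groups only without the lymph node libraries.

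Of TGF-beta signalling genes 12 were higher and 7 lower in FLASH (median 0.16 without the pair, and 0.037 without CONV replicate 3 as well). The receptor Tgfbr2 was at 377, 274 and 390.4 CPM in CONV and 178, 217, 304 and 233 CPM in FLASH (-0.86 ± 0.15 without the pair, and -0.58 ± 0.22 with all libraries). Ldlrad4, an inhibitor of the pathway, was at 19.5, 15.9 and 17.8 CPM in CONV and 25.3, 22.0, 24.0 and 19.4 CPM in FLASH (0.36 ± 0.16 with all libraries), below the sham range of 33.3, 35.8 and 29.2 CPM in both groups. Ly6a, the progenitor and endothelial surface antigen Sca-1, was higher in each CONV library (149.9, 142 and 154 CPM) than in any FLASH (61.6, 88.2, 78.8 and 98.2 CPM) or sham library (80.0, 87.9 and 76.9 CPM), and differed by -0.86 ± 0.17 with all libraries. The progenitor list had a median of 0.12, which turned with the CONV library left out (1.15 without CONV replicate 1 and -0.38 without CONV replicate 3). Smooth muscle actin Acta2 was at 146, 101, 15.2 and 145 CPM in FLASH and 52.3, 13.7 and 30.0 CPM in CONV. Of 16 endothelial genes 11 had a fold change above 0 without the pair (median 0.18), and 2 were at an unadjusted p under 0.05, against 6.75% of all genes tested. The median was 0.056 without CONV replicate 1 and 0.070 without FLASH replicate 1. The tight junction gene Cldn5 was at 69.9, 51.2, 19.4 and 46.8 CPM in FLASH and 38.5, 9.48 and 42.3 CPM in CONV, and the VEGF receptor gene Kdr at 193, 162, 104 and 148 CPM in FLASH and 123, 92.8 and 139 CPM in CONV.

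Genes of the DNA damage response had medians close to that of all genes. Of 24 p53 targets 15 were higher and 9 lower in FLASH without the pair, 1 and 2 at an unadjusted p under 0.05 (median 0.022). Of all genes tested there, 6.75% were higher and 6.90% lower at that level. Cdkn1a (p21), which halts the cell cycle, was at 57.6, 41.7, 15.5 and 17.9 CPM in FLASH, 24.3, 11.3 and 15.3 CPM in CONV and 29.7, 29.6 and 20.1 CPM in sham. FLASH replicates 1 and 2 lay above every other library and FLASH replicates 3 and 4 within the CONV range, and the difference of 0.99 ± 0.45 had a 95% interval of -0.063 to 2.04. The death receptor gene Tnfrsf10b was at 10.8, 12.8, 10.1 and 10.2 CPM in FLASH and 13.7, 6.91 and 21.8 CPM in CONV. Pmaip1 (Noxa), a trigger of apoptosis, was highest in the lymph node libraries (1.52, 2.46, 29.9 and 2.84 CPM in FLASH and 6.74, 20.5 and 3.18 CPM in CONV). DNA break repair genes had a median of -0.014 (10 higher, 11 lower), with the checkpoint kinase Chek2 at 8.99, 8.13, 11.01 and 7.71 CPM in FLASH and 6.10, 13.6 and 5.85 CPM in CONV. The end-joining subunit Xrcc6 (Ku70) was at 14.5, 11.03, 18.7 and 11 CPM in FLASH and 13.1, 23.6 and 28.9 CPM in CONV. Senescence and secretory factors had a median of 0.14 and included Igfbp3, an IGF-binding protein, at 43.5, 28.6, 128 and 37.97 CPM in FLASH and 16.9, 90.6 and 13.7 CPM in CONV. Sphk1, which makes sphingosine 1-phosphate, was at 1.12, 0.883, 0.953 and 1.11 CPM in FLASH, 0.671, 1.57 and 0.963 CPM in CONV and 0.394, 0.523 and 0.168 CPM in sham, so that both irradiated groups lay above sham and overlapped each other. Cell cycle genes had negative differences with all libraries (median -1.37, 0 of 24 at an unadjusted p under 0.05) and without the pair had a median of 0.044. Their mean was 2.33 and 3.62 above sham in the FLASH and CONV lymph node libraries and -0.37 to 0.17 in the other irradiated ones.

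Genes of hormonal, circadian, oxygen and redox responses are named here by the smallest p of their lists, apart from the preset Fkbp5. Their separation without the pair follows in part from that choice. In that set 12.8% of all genes lay wholly above and 13.2% wholly below. With all libraries only Fkbp5 and Egln3 of them kept the groups apart. The list medians changed sign with the CONV library left out, except that of NRF2 targets. Fkbp5, a glucocorticoid-induced co-chaperone, was at 72.7, 73.0 and 121 CPM in CONV, 53.3, 50.8, 52.6 and 55.3 CPM in FLASH and 28.3, 42.6 and 34.5 CPM in sham. Every FLASH library lay above every sham library and every CONV library above every FLASH library (-0.74 ± 0.22 with all libraries, -0.85 ± 0.23 without the pair, -0.46 without CONV replicate 3 as well). Pdk4, the brake on pyruvate dehydrogenase, was at 249, 18.7 and 326 CPM in CONV and 99.6, 119.6, 35.7 and 89.4 CPM in FLASH. The glucocorticoid list as a whole had 6 of 15 members lower at an unadjusted p under 0.05 and 0 higher, yet a median of 0.046 (0.080 without CONV replicate 1 and -0.37 without CONV replicate 3). Of all genes tested without the pair, 6.90% were lower and 6.75% higher at that level. Clock genes had a median of -0.11, which was -0.54 without CONV replicate 1 and 0.34 without CONV replicate 3. Nr1d1, a repressor of the clock, was at 239, 205, 72.6 and 334 CPM in FLASH and 136, 15.99 and 151 CPM in CONV. Cry2, another repressor of the clock, was at 95.6, 86.9, 29.7 and 94.0 CPM in FLASH and 71.9, 26.8 and 73.9 CPM in CONV. In the hypoxia list (median -0.036, and 0.10 without CONV replicate 3) Ndrg1, a gene induced by low oxygen, was higher in FLASH outside the lymph node libraries (201, 160.0, 78.8 and 168 CPM in FLASH and 101, 54.5 and 74.9 CPM in CONV, 1.01 ± 0.20 without the pair). The oxygen sensor Egln3 was lower in FLASH without overlap (1.64, 1.77, 3.28 and 2.71 CPM in FLASH and 4.50, 5.01 and 6.85 CPM in CONV, -1.46 ± 0.34 without the pair). NRF2 targets had a median of -0.19 (-0.34 without CONV replicate 1 and -0.014 without CONV replicate 3), with sulfiredoxin (Srxn1) at 22.8, 18.7, 7.28 and 19.05 CPM in FLASH and 24.7, 6.38 and 33.5 CPM in CONV. Thioredoxin reductase (Txnrd1) was at 81.2, 65.4, 59.3 and 78.9 CPM in FLASH and 83.03, 64.5 and 118 CPM in CONV, highest in CONV replicate 3.

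**Figure D5:**
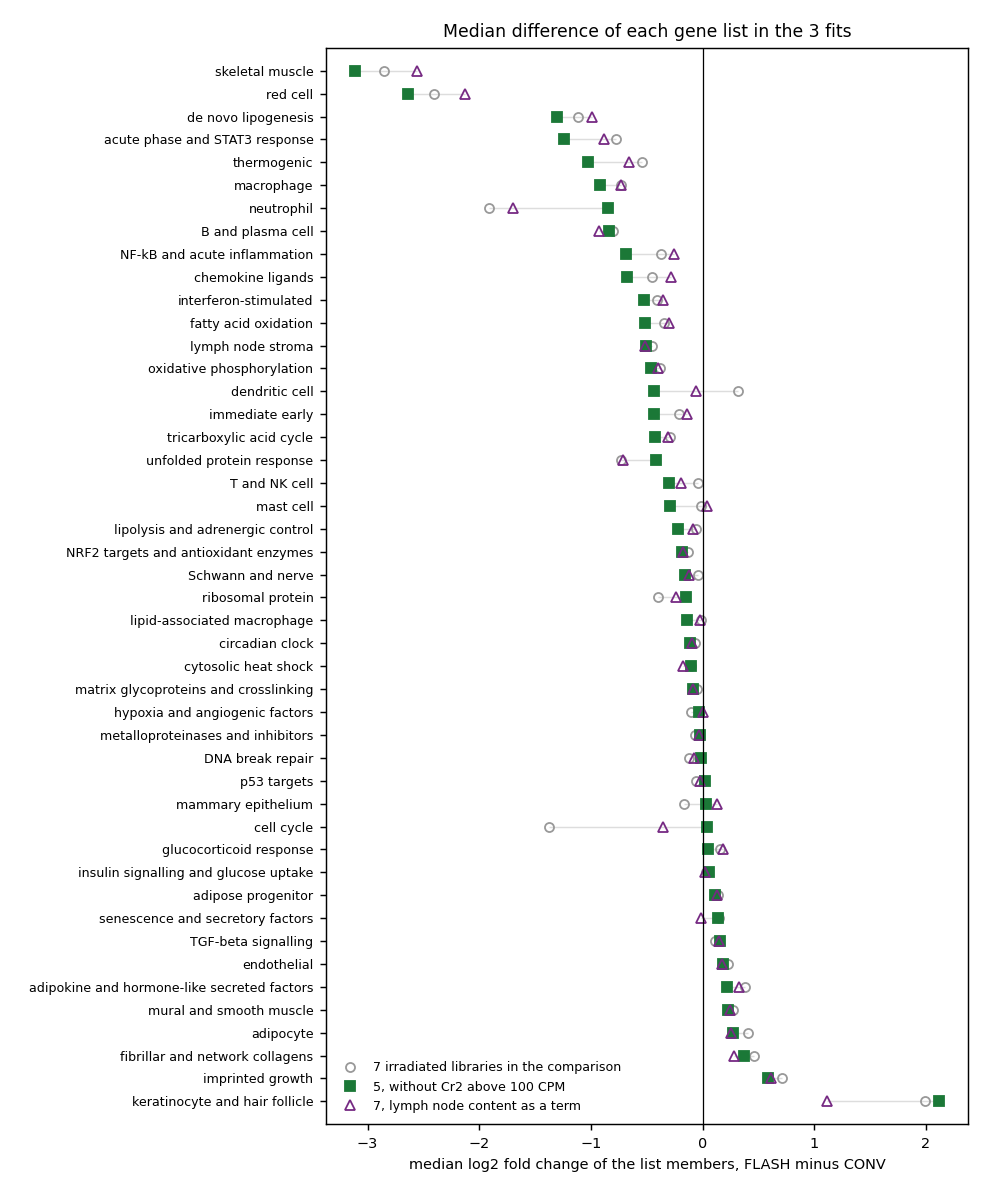
Median log2 fold change, FLASH minus CONV, of the members of 46 gene lists in 3 fits: all libraries (circles), without the lymph node libraries (squares) and with lymph node content as a term (triangles). The acute phase list stands at -0.78, -1.24 and -0.88 and the cell cycle list at -1.37, 0.044 and -0.36 in that order.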

How the data were processed

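Total RNA was sequenced from 4 FLASH, 3 CONV and 3 sham libraries, grouped by their titles. Each deposited table of the authors gives raw counts for 24421 gene symbols and 5 entries without a gene, which held 52.0% to 69.6% of the reads of the irradiated libraries and stayed out of library sizes. Per the labels, the kit was a stranded total RNA kit with ribosomal depletion. The submitters' processing notes name kallisto 0.5.0 and mm10. The 5 entries, however, are of the kind htseq-count writes and kallisto does not, so which tool made the counts is not settled here. No aligner, strand setting or annotation is given in the sources used here. Genes that overlap on opposite strands therefore have uncertain values.

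In R 4.3.3, edgeR 4.0.16 (filterByExpr, TMM, robust quasi-likelihood, 1 mean per group, sham included to estimate the spread) gave the contrast FLASH minus CONV, two-sided, adjusted by Benjamini and Hochberg. It was fitted to 10 libraries, to the 8 with Cr2 at or under 100 CPM, and to 10 with lymph node content as a term. DESeq2 1.42.0, limma 3.58.1, other scalings, filters and covariates, a block for the replicate number and the omission of single libraries were alternatives. The lists are 45, plus 1 added later, and were described by counts and medians.

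The members, lists and tests were chosen with earlier results of these data known. Named genes were up to 8 per direction past the threshold in each fit with a mean of at least 1 CPM, or, with fewer than 5, the 5 smallest p-values, the 2 members of each list with the smallest p without lymph node libraries, and 19 preset genes. Lists of tissue content, cell cycle and ribosomal proteins are given by their levels without members. Mest, Bmp3, Hymai, Plagl1, Igf2, Xbp1, Il1b, Ccr2, Hp, Stat3, Slc5a7 and Serpina3n were named after their values were seen, as were Jchain, Tpr, Il6ra, Tnfaip3 and Edem1. Some genes that the rule names are not reported here. GENCODE M21 gave gene positions. Promoters and microRNAs came from RefSeq. The edgeR fit was tested on simulated data. No such test is reported here for the other statistical steps.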

Additional observations from a re-analysis of the deposited data

Results flagged for a closer look

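In the FLASH group of 4 libraries, 120 sets of values were checked for a highest or lowest library that stood apart by Dixon's 95% criterion, which chance alone meets in about 1 in 20 groups, and 27 met it. The groups of 3 were not checked. FLASH replicate 3, the lymph node library, was highest in 15 and lowest in 9 of them.

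The lymph node libraries were chosen by Cr2, which is also in the B and plasma cell list, so that their flags follow from that choice. Of immune genes, FLASH replicate 3 stood highest for Cr2 (411 CPM after TMM scaling), Socs3 (35.2), Il4ra (179), Il1b (4.57), Csf3r (13.8), Chil3 (0.915), Cxcl13 (74.4), Cxcr2 (18.5) and Oas3 (48.4 CPM). It was also highest for Cpxm1 (63.0), Pmaip1 (29.9) and Igfbp3 (128 CPM), and for the list means of B and plasma cells (8.45 above the sham mean on the log2 scale), T and NK cells (5.77) and neutrophils (1.66). It was lowest for Hp (150.1 CPM), Cd14 (6.63), Plagl1 (24.3), Dld (76.4), Cox6c (33.1), Mmp19 (16.7) and Cry2 (29.7 CPM), and for the means of the adipocyte list (-2.31) and the imprinted growth list (-1.67).

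Outside that library, keratinocyte and hair follicle markers stood highest in FLASH replicate 4 (4.23 above the sham mean). Myh4 was highest in FLASH replicate 2 at 0.552 CPM, and the macrophage list mean was lowest in FLASH replicate 1 (-0.14).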

How the results depend on the processing

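With all libraries the count of genes past the threshold was 0 in edgeR and 40 in DESeq2. It was 1 with limma voom and quality weights (Socs3, adjusted p 0.0223) and 1 with B cell content as a covariate (Csf3r). Leaving out 1 library at a time gave 0 to 1 genes, Socs3 without FLASH replicate 3 and Prg4 without CONV replicate 2. Without the lymph node libraries the 2 calls became 5 with no filter on low counts (Card14 and Il4ra among them), 667 in DESeq2, 8 with the muscle list mean as a covariate and 0 when sham was left out of the fit. Leaving out 1 library at a time gave 0 to 1025 genes. There were 0 without sham replicate 1 or 3 or any 1 FLASH library, 3 without sham replicate 2, 86 without CONV replicate 3 (85 of them lower in FLASH) and 1025 without CONV replicate 1 (536 higher, 489 lower). In the last 2 fits the spread of the lone CONV library is taken from the other groups. With lymph node content as a term, limma voom passed 5 genes, and leaving out 1 library gave 0 to 74 genes (74 without CONV replicate 1). The cause of these shifts was not tested.

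The replicate number as a block left 0 of the 2 calls without the lymph node libraries (edgeR adjusted p = 0.593 for Prg4 and 0.598 for Socs3). Nothing in the labels ties libraries of the same number together. For lack of such a label the numbers were not taken to pair them. Same-numbered FLASH and CONV libraries had correlations of their deviations of 0.25, -0.76 and -0.61 with all libraries and -0.47 without the lymph node libraries. These values cannot show or exclude a pairing. With all libraries the highest correlation was 0.90, between the 2 lymph node libraries, which carry different numbers. Without these, the 2 CONV libraries left deviate as mirror images (-0.47 and 0.47 with FLASH replicate 1).

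Some differences changed sign. Sphk1 with all libraries was 0.019 in limma voom, 0.27 with quality weights, 0.029 with lymph node content as a term and 0.040 with the B cell covariate, and -0.040 with the replicate block without the lymph node libraries. Col1a1 with all libraries was 0.0054 with the muscle covariate, and Cr2 was 0.54 with the B cell covariate. Over the fits that each left out 1 library, the values with all libraries spanned -8.99 to 7.61 for Cr2, -2.17 to 0.90 for Pmaip1, -0.13 to 0.59 for Chek2, -0.49 to 0.42 for Col1a1, -0.16 to 1.97 for Igfbp3, -0.055 to 0.82 for Adipoq, -5.33 to 1.04 for Cxcl13, -7.35 to 1.504 for Cxcr2, -3.09 to 0.57 for Oas3 and -0.30 to 0.32 for Sphk1. They spanned -0.80 to 0.061 for Cox6c, -0.67 to 0.19 for Dld, -1.18 to 0.053 for Gpam, -0.78 to 0.13 for Srxn1, -0.75 to 0.089 for Sucla2, -0.69 to 0.091 for Tnfrsf10b and -0.75 to 0.047 for Uqcrc2. In the set without the lymph node libraries they spanned -0.50 to 0.26 for Col1a1, -16.52 to 5.36 for Myh4 and -8.94 to 3.84 for Ucp1. With 3 against 2 libraries, the 95% interval reached beyond a 2-fold difference for all but 61.0% of genes.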

Other observations

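Several lists not described above stood apart in the lymph node libraries. Lymph node stroma markers lay 3.82 and 4.20 above the sham mean (log2) in the FLASH and CONV lymph node libraries and between -0.35 and 0.58 in the other irradiated ones. Mural and smooth muscle markers lay at -1.37 and -1.41 there and between -0.46 and 0.12 elsewhere. Ribosomal protein genes, which make up the protein part of the ribosome, lay 1.004 and 1.42 above the sham mean there and between -0.24 and 0.22 elsewhere. Dendritic cell markers lay 3.24 and 2.13 above it there and between -0.34 and 0.71 elsewhere. The dendritic list had a FLASH minus CONV median of 0.32 with all libraries and -0.44 without the pair. In the latter set it was 0.058 without CONV replicate 1 and -0.79 without CONV replicate 3. Schwann cell and nerve markers, of the myelinating cells of peripheral nerve, lay at -0.84, -0.30, -1.28 and -0.57 in FLASH and -0.55, -1.22 and -0.39 in CONV. The sham libraries were at -0.38, 0.57 and -0.19, so that FLASH replicate 2 lay within their range and CONV replicate 3 at its edge. Their FLASH minus CONV median was -0.16 without and -0.045 with the lymph node libraries.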
